A study of Homo sapiens with 9 samples.

Results

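The HOX genes of clusters A to D were examined through the CCCGGG sites that lie in 4 windows of the hg19 genome: chromosome 7 from 27120000 to 27260000 (HOXA), chromosome 17 from 46600000 to 46815000 (HOXB), chromosome 12 from 54330000 to 54450000 (HOXC) and chromosome 2 from 176940000 to 177060000 (HOXD). A site was taken when it had a methylation value in at least 2 libraries of each group. This left 106 sites of 64313 in the genome, with 27 in HOXA, 22 in HOXB, 23 in HOXC and 34 in HOXD. All 9 libraries were genomic DNA of HEK293T, an easily transfected line derived from human embryonic kidney cells that holds the SV40 T-antigen, harvested 4 days after Lipofectamine transfection of a pIRES plasmid. The plasmid was an empty vector in 3 libraries, carried the TET1-ALT form in 3 and full-length TET1 (TET1-FL) in 3, so every group went through transfection. TET1 oxidises 5-methylcytosine, and the TET1 isoform in the series' title lacks the CXXC domain, which binds CpG-rich DNA. No source used here gives the share of transfected cells, the amount of either protein, or whether replicates were separate cultures. The p-values therefore measure the spread between these libraries, which may be technical.

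HOX genes encode homeodomain transcription factors that give cells their position along the body axis and in limbs, gut and kidney. They stand in 4 clusters, ordered so that genes at one end act in anterior parts and genes at the other end in posterior parts, and Polycomb proteins hold silent HOX genes in many cells, often over DNA that is free of methylation. HOXA11 and HOXD11 are known for their role in the developing kidney, HOXA13 and HOXD13 for the distal limb and HOXB13 for the prostate. In the RefSeq gene table at hand (assembly GRCh38.p14) the HOXA genes run from HOXA2 to HOXA13 and the HOXB genes from HOXB1 to HOXB13 towards higher coordinates, whereas HOXC and HOXD begin with HOXC13 and HOXD13. No annotation of hg19 was used here, so a site is given by its position and is assigned to no gene, exon or promoter.

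The assay reads CCCGGG only. SmaI cuts that sequence when its CpG is unmethylated, XmaI then cuts the methylated copies, and the 2 kinds of end are counted. To show how much of the start sites of these genes such an assay can see, the 300 bases around transcription starts in the RefSeq promoter table (250 before and 50 after, GRCh38.p14) were searched for CCCGGG, which reads the same on both strands. The table matched 20 of the 38 member genes with 27 promoters, of which 4 (14.8%) held the sequence, beside 7353 of the 35116 promoters of all genes in the table (20.9%). The 5 occurrences are shown on the gene's strand, 5′ to 3′, with 12 bases on either side and the recognition sequence in capitals, and the number after each name is the place of its first base relative to the start:

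HOXA3, at -137: cagtggaatgaaCCCGGGtctgatttcgcg

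HOXA6, at -154: gtcgccgcggtcCCCGGGgagcgggctccg

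HOXD8, at -124: cattcccgcggcCCCGGGgcacacggagcc

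HOXD11, at -217: ggtcagggagcgCCCGGGgagagctggcgg

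HOXD11, at -147: gccaggagccgtCCCGGGgcgtgttggcga

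On GRCh38.p14 these promoter windows are chr7:27122978-27123277 (HOXA3, minus strand), chr7:27147725-27148024 (HOXA6, minus strand), chr2:176129455-176129754 (HOXD8, plus strand) and chr2:176107030-176107329 (HOXD11, plus strand), positions that cannot be set against the hg19 positions of the sites. The HOXD11 promoter was the only one of a member with 2 sites, 70 bases apart. Among neighbouring sites that the deposited table lists in the HOXD window, 1 pair had that spacing, at 176971794 and 176971864 on hg19, and neither of them had a value in any library. The same spacing occurred at 175 neighbouring pairs in the genome, so spacing alone is a description and not a placement.

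The 4 windows list 250 CCCGGG sites, and 42.4% of these (106) had enough values, against 16.8% in the rest of the genome. The share was 49.1% in HOXA, 29.3% in HOXB, 41.8% in HOXC and 52.3% in HOXD. Each measured HOX site had another listed site within 712 bases (median distance 226 bases), whereas for the 144 others the median distance was 1353 bases. Since libraries were cut from a gel by fragment size, 2 neighbouring sites can be the ends of 1 fragment and are not independent. The sites at 46689081 and 46689675 in HOXB, 594 bases apart, differed by at most 0.05 points within any library. A value was missing at 5 of the 106 sites. Empty vector replicate 3 lacked 4 values and had the fewest sites with a value in the genome (61549, beside 66010 to 72340 in the other libraries). The depth of each value is unknown beyond the 20 reads that the labels require.

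The HOX windows were a mosaic of sites with almost no methylation and sites with nearly full methylation. Taking the mean over all libraries, 51 of 106 sites (48.1%) were under 5% and 25 (23.6%) over 95%, while 5 lay at 5 to 20%, 13 at 20 to 80% and 12 at 80 to 95%. In the rest of the genome 37.5% of sites were under 5% and 8.73% over 95%, with 25.3% at 20 to 80%. The flanks looked different: of 50 measured sites within 200 kb outside the windows, 4 were under 5% and 45 were at 20% or more. No test was made of these shares, since the sites were chosen by position with earlier results known and neighbouring sites share fragments.

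**Figure D1:**
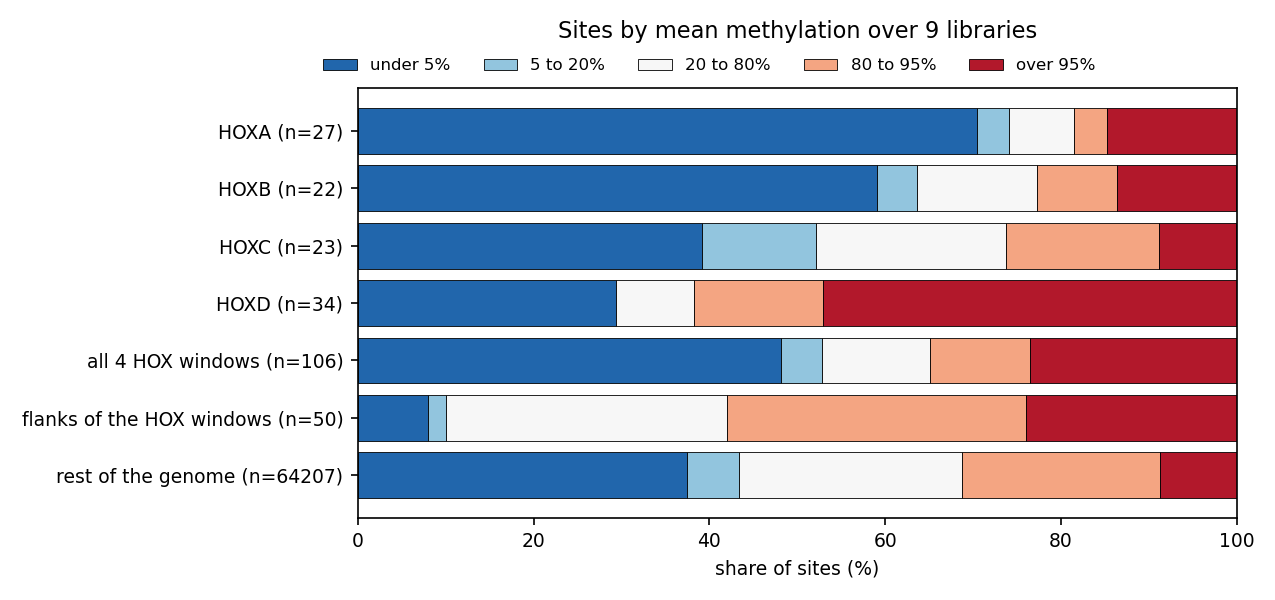
Share of sites (x axis, percent) in 5 classes of mean methylation over 9 libraries, for each HOX window, all 4 together, the flanks and the rest of the genome (y axis, with the number of sites n). HOXA has the most sites under 5% (70.4%), and HOXD the most over 95% (47.1%).

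The clusters differed in how much of this mosaic was methylated. HOXA had a mean level of 20.9% over its sites and 19 of 27 sites (70.4%) under 5%. HOXB followed with a mean of 30.1% and 13 of 22 sites (59.1%) under 5%. HOXC, at 34.9%, had 9 of 23 sites (39.1%) under 5% and the most sites between the extremes, with 5 at 20 to 80% and 3 at 5 to 20%. HOXD was the most methylated, with a mean of 64.2%, 16 of 34 sites (47.1%) over 95% and 10 (29.4%) under 5%. The median number of other listed sites within 1000 bases was 1.5 in HOXD and 2 in each of the other windows and in the rest of the genome. Among sites with 3 or more such neighbours, 58.3% of 36 HOX sites and 55.2% of the other sites of the genome were under 5%, and 13.9% and 6.78% were over 95%. Among sites with 0 to 2 such neighbours the shares lay further apart, with 42.9% of 70 HOX sites and 25.9% of the others under 5%, and 28.6% and 10.0% over 95%.

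Most measured HOXA sites were unmethylated, and they stood together. From 27169614 to 27200878 there were 15 consecutive measured sites over 31264 bases, with means from 0.0578% to 1.88%. The site at 27200520 was the lowest in the window, at 0.04% in the 3 empty vector libraries. Next to this stretch stood 3 sites of intermediate level: 27205792 at 26.2%, 27205964 at 23.8% and 27206370 at 19.6%. Sites at 27213189 and 27213611 were again under 1% (0.287% and 0.349%). Full methylation returned at 27232353, the highest site of the window at 98.9%, and at 27232698 (97.95%), then was absent at 27239370 and 27239974 (0.461% and 0.606%) and present again at 27253267 (97.4%) and 27253649 (94.0%). The window thus held 4 places where neighbouring measured sites passed between under 20% and 80% or more.

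HOXB showed the same alternation over a longer and more sparsely measured window. Its low stretches were 46620640 to 46621303 (4 sites, 0.25% to 0.502%), 46689081 to 46702694 (5 sites, 0.0456% to 0.577%), 46723835 and 46724255 (1.13% and 0.422%) and 46806125 and 46806661 (0.338% and 0.669%). Methylated sites stood before the first of them at 46604364 (94.3%) and 46604609 (86.05%), and between them at 46685256 (96.1%), 46711052 (97.1%) and 46711265 (98.7%). Near the high-coordinate end stood 4 sites of intermediate level at 46796098 (57.6%), 46796695 (51.5%), 46800535 (18.2%) and 46800952 (56.1%). These 4 were the HOXB sites between 5% and 80%.

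In HOXC levels often differed between sites a short distance apart. The site at 54348741 averaged 37.1% and its neighbour 84 bases away, at 54348825, 89.8%, followed by 96.1% at 54349061 and 98.1% at 54349074. Further along, 54427900 was at 0.28%, 54428396 at 53.1% and 54428512 at 93.05%, over gaps of 496 and 116 bases. At 54368450, 54368808 and 54368907 the means were 21.3%, 16.5% and 31.03%. Of 14 pairs of adjacent listed HOXC sites at most 600 bases apart, 5 (35.7%) had means within 5 points. The same count was 15 of 15 in HOXA, 9 of 12 in HOXB and 14 of 18 in HOXD, and the share was 56.8% of 33497 pairs in the rest of the genome.

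HOXD had the most changes between the extremes, 7, and the shortest. At 176944572 methylation averaged 87.3%, and 143 bases further, at 176944715, it was 0.241%, a step of 87.1 points that was the only one of 60 points or more among the 59 adjacent HOX pairs. Nearly full methylation spanned 6 sites from 176977591 to 176988086 (97.7% to 99.5%) and 5 sites from 177016508 to 177021301 (97.03% to 99.1%). In the first of these stretches stood 176977591, the most methylated HOX site of all (99.5%). Unmethylated sites lay before the first stretch at 176969786 to 176972830 (4 sites, 0.194% to 0.786%) and after the second at 177022963 to 177023688 (3 sites, 0.157% to 0.457%). Between the stretches were 176993701 at 24.7% and 176994312 at 0.819%. The passage from 177021301 (97.03%) to 177022963 (0.222%) took 1662 bases.

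**Figure D2:**
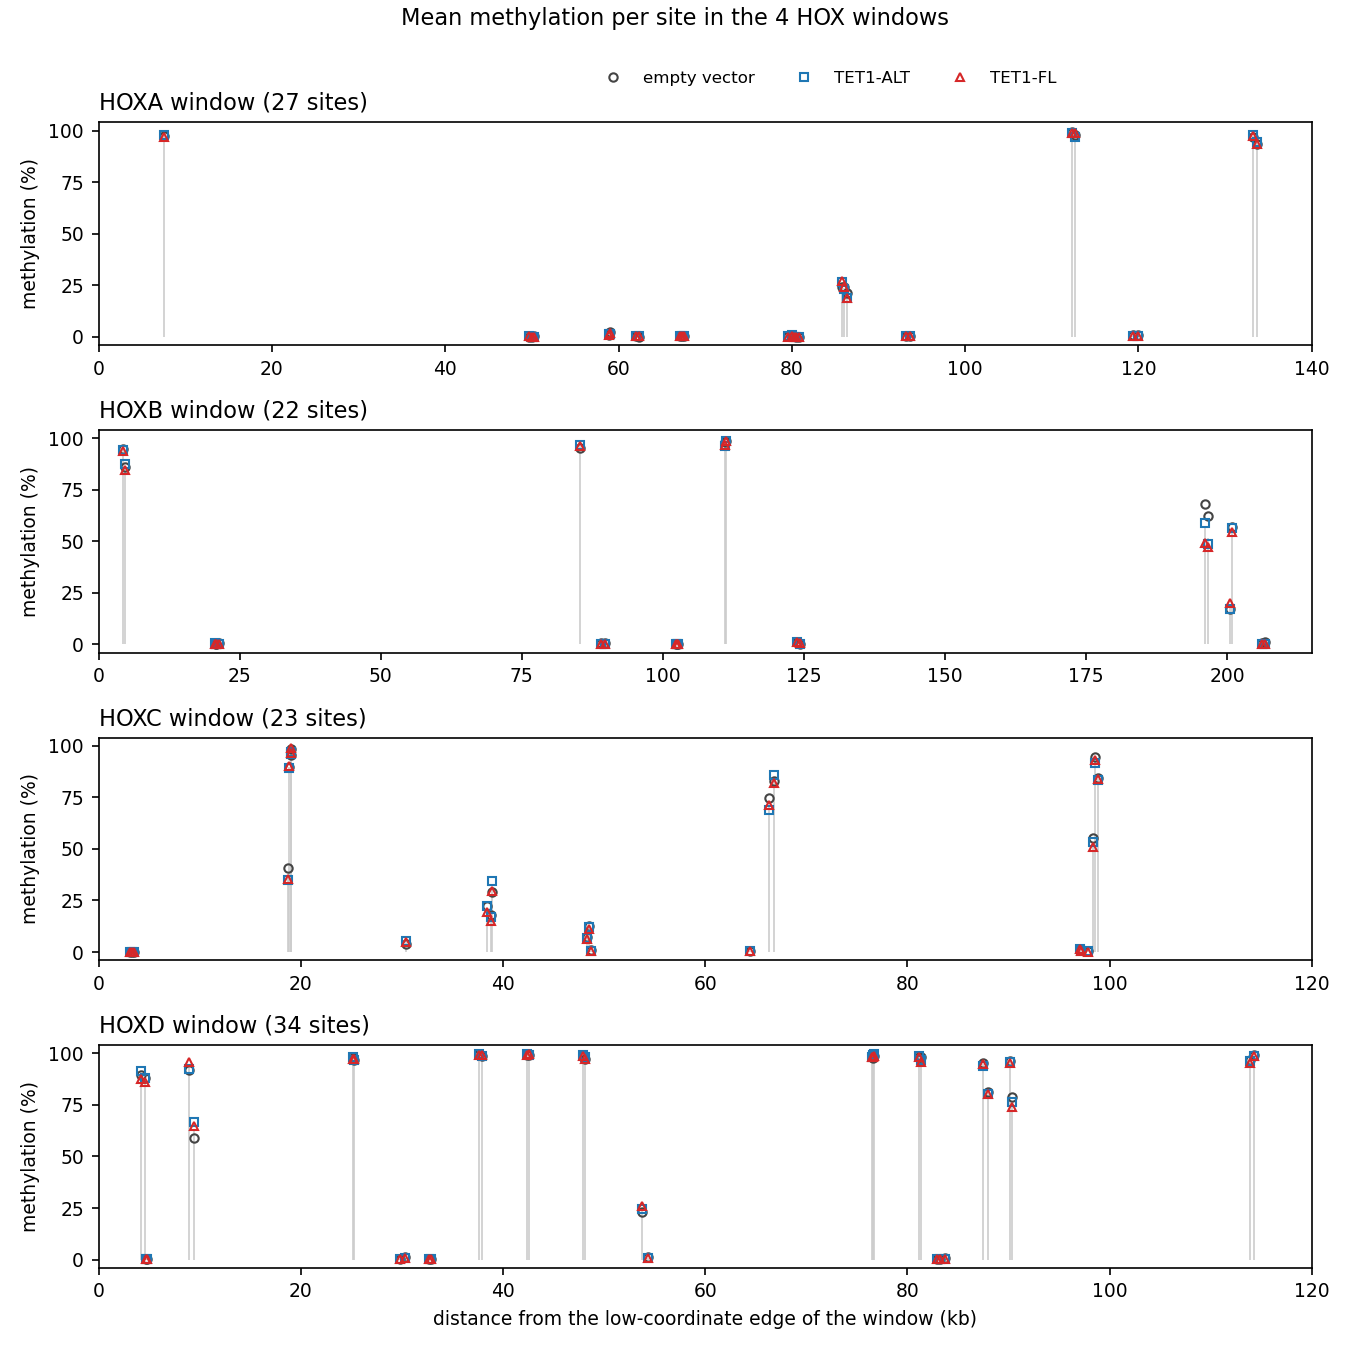
Mean methylation of each site (y axis, percent) against its distance from the low-coordinate edge of its window (x axis, kb) in the 4 HOX windows, with a symbol for each group. The 3 symbols overlie each other at most sites, and the neighbouring pair of intermediate sites near the right end of HOXB is where they separate most.

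Full-length TET1 was set against the empty vector to see whether HOX sites lost or gained methylation, and no HOX site passed the test. In limma 0 of 106 sites had an adjusted p under 0.05, with a smallest adjusted p of 0.401, and across the genome 0 of 64313 sites (0%) were called. With libraries centred on their mean over sites of 80% or more, 30 of 106 HOX sites and 17666 of 64313 genome sites were called. Each of the 30 HOX sites was higher in TET1-FL, and 29 of them were under 5%. Centring subtracts 1 constant per library from every site. The means used were 91.6%, 91.7% and 91.3% in the empty vector libraries and 90.4%, 90.7% and 90.6% in TET1-FL. It thus raises every TET1-FL site against the empty vector, by construction, and these calls are not a gain of methylation at HOX sites. An unadjusted p under 0.05 was reached by 14 HOX sites, of which 12 were lower and 2 were higher with full-length TET1, beside 10.5% of the genome. Of the 6768 such sites in the rest of the genome, 6026 were lower and 742 were higher. The count of HOX sites was 7 without TET1-FL replicate 3, 9 without TET1-FL replicate 2, 8 with only these groups in the fit and 38 with centring. The TET1-FL libraries lay below all empty vector libraries at 19 HOX sites (17.9%), beside 15.2% of sites in the genome, and above them at 1 (0.943%), beside 2.38%. These shares are near those of the genome, so they do not set the HOX sites apart.

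The size of the difference depended on the level of a site. For the 25 HOX sites of 20 to 95% the median difference between TET1-FL and the empty vector was -1.16 points, with 18 sites lower, and for the rest of the genome it was -1.48 points with 73.6% lower. At the 25 HOX sites over 95% the median was 0.03 points with 12 lower, against -0.32 points and 64.5% in the rest of the genome. For the 51 HOX sites under 5% it was -0.08 points with 37 lower, against -0.0167 points and 56.7%.

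Averaged over sites with all 9 values, the clusters moved by less than 1.1 points. HOXA means were 20.91%, 20.89% and 20.99% in the empty vector libraries. They were 20.81%, 20.83% and 20.87% in TET1-FL, a difference of -0.0953 points with no overlap, which became 0.852 points with the centring above. HOXB went from 27.7% ± 0.208 (SD, n = 3) to 27.5% ± 0.359, HOXC from 36.9% ± 0.776 to 35.9% ± 0.611 and HOXD from 67.4% ± 0.430 to 67.3% ± 0.457. The libraries of these 3 windows overlapped, and centring turned the HOXB and HOXD differences of -0.280 and -0.157 points to 0.668 and 0.79 points. Centring moves the difference of every window by the same amount, by construction. The changes of sign it brings are therefore not a result about HOX. HOXD also turned to 0.0829 points without TET1-FL replicate 1, and HOXB was -0.0764 points without TET1-FL replicate 1. With the median level over sites in each library in place of the mean, HOXD differed by 0.148 points. The median of the differences per site was -0.0683 points over the 34 HOXD sites. With the sites that lack a value included, HOXB differed by -1.79 points. HOXC differed by -1.02 points, the largest of the 4 over sites with all 9 values, and by -0.0731 points when centred, the smallest of the 4. Over all 4 windows the difference was -0.353 points (40.5% ± 0.251 and 40.1% ± 0.286), with overlapping libraries. In the rest of the genome it was -0.823 points (43.4% ± 0.161 and 42.6% ± 0.136) without overlap. The 22 HOX sites of 20 to 95% with all values averaged 70.45%, 70.75% and 68.4% under the empty vector. In TET1-FL they averaged 68.37%, 70.17% and 68.41%, which is -0.887 points with library pairs from -2.39 to 1.77.

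**Figure D3:**
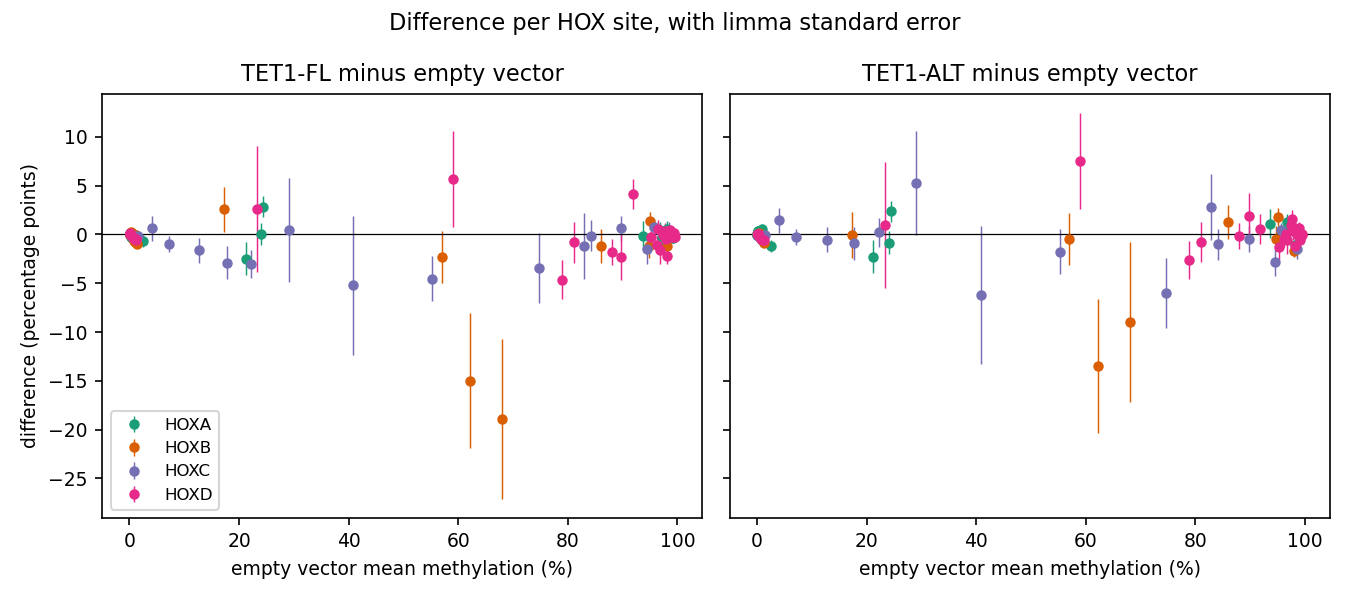
Difference from the empty vector in percentage points (y axis, limma estimate with its standard error) against the empty vector mean (x axis, percent) for each HOX site, in TET1-FL (left) and TET1-ALT (right), coloured by cluster. Most sites lie near 0, and the pair in HOXB with empty vector means of 62.2% and 68.0% lies lowest in TET1-FL.

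The largest differences in TET1-FL were at 2 neighbouring HOXB sites, 46796098 and 46796695, which are 597 bases apart. At 46796098 the values were 67.58% and 68.50% under the empty vector, 41.44%, 51.73% and 54.33% in TET1-FL, and 74.16%, 57.91% and 45.01% in TET1-ALT. All TET1-FL libraries were below both empty vector libraries, and the TET1-ALT libraries reached to either side of them. The limma difference of TET1-FL from the empty vector was -18.9 points (SE 8.20, limma adjusted p = 0.486). At 46796695 the values were 62.88% and 61.49%, then 48.30%, 41.61% and 51.67% in TET1-FL, and 61.49%, 36.56% and 48.01% in TET1-ALT. The difference there was -15.0 points in TET1-FL (SE 6.89, limma adjusted p = 0.503). Empty vector replicate 3 had no value at either site, so their empty vector mean rests on 2 libraries, and the pair may be the ends of shared fragments. These were the only HOX sites where libraries of 2 groups were apart with means at least 10 points different.

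At other partly methylated sites the differences were smaller. The HOXD site at 177030376 had 78.53%, 80.50% and 77.48% under the empty vector, against 70.83%, 75.76% and 76.06% for TET1-FL, apart by -4.62 points (SE 1.99, limma adjusted p = 0.474). The HOXA site at 27205792 was the 1 site with TET1-FL above the empty vector without overlap. It had 24.27%, 25.39% and 23.67% under the empty vector, 29.08%, 26.72% and 26.10% in TET1-FL, and 26.52%, 26.50% and 27.40% in TET1-ALT. Its neighbour 172 bases away, 27205964, had means of 24.04% and 24.1% with the empty vector and TET1-FL, and 27206370, a further 406 bases on, had 21.2% ± 2.21 and 18.7% ± 2.72.

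At some HOXC sites 1 library set the difference. The HOXC site at 54348741 had 58.13%, 32.41% and 32.08% under the empty vector, 38.93%, 37.41% and 30.61% in TET1-FL and 36.95%, 39.39% and 27.74% in TET1-ALT. Empty vector replicate 1 alone was high, and without it the difference in TET1-FL turned from -5.22 to 3.40 points and that in TET1-ALT from -6.18 to 2.45 points. The same library was low at 54368907, with 17.99% beside 36.08% and 33.26%, where TET1-ALT had 26.57%, 38.40% and 38.16%. The difference of TET1-ALT at that site was 5.27 points, and -0.293 points without empty vector replicate 1. In HOXD, 176949389 had 64.46%, 62.89% and 49.63% under the empty vector, against 61.07%, 66.49% and 66.60% for TET1-FL, which overlap.

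**Figure D4:**
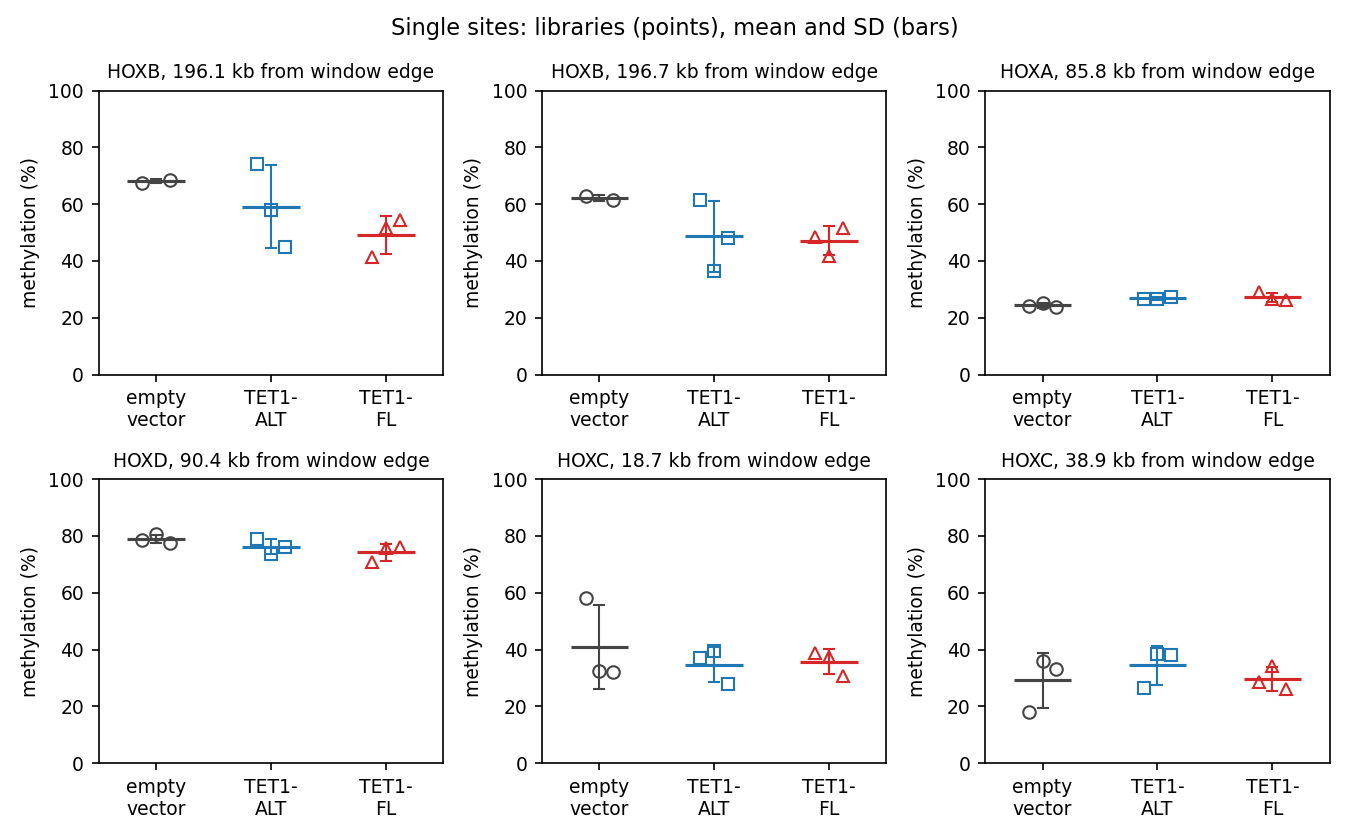
Methylation (y axis, percent) of single HOX sites in each library (points), with the mean and SD of each group (bars), for the empty vector, TET1-ALT and TET1-FL. Panel titles give the distance from the low-coordinate edge of the window. The 2 HOXB sites at the upper left have 2 empty vector libraries each, both above all TET1-FL libraries, and the HOXC sites in the lower row show the empty vector library that stands alone.

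Of the 19 HOX sites with lower TET1-FL libraries, 12 were under 5%, so the differences there were fractions of a point. These 12 were 23.5% of the HOX sites under 5%, beside 14.9% in the rest of the genome, and the shares were not tested. Several of the 12 are neighbours that may share fragments, so they do not count as separate places. At 176994312 in HOXD, also among them, only 2 empty vector libraries had a value. At 46620640 in HOXB the empty vector libraries had 0.98%, 0.46% and 0.84%, and those of TET1-FL 0.09%, 0.09% and 0.14%, with 0.527% ± 0.151 (SD, n = 3) in TET1-ALT. The difference was -0.653 points (SE 0.135, limma adjusted p = 0.401), which was the smallest adjusted p among the HOX sites. In HOXA the neighbours 27199604, 27199974 and 27200202 had empty vector means of 0.453%, 1.01% and 0.303% and TET1-FL means of 0.120%, 0.437% and 0.0933%. The pair at 27239370 and 27239974 went from 0.843% and 1.05% to 0.287% and 0.407%, with TET1-ALT at 0.253% and 0.357%. The pair at 46689081 and 46689675 in HOXB went from 0.917% and 0.957% to 0.393% at both, with TET1-ALT at 0.387% and 0.380%. Empty vector replicate 3 was the highest library at both pairs, with 1.39% and 1.60% in HOXA and 1.39% and 1.44% in HOXB. Empty vector replicates 1 and 2 had 0.50% to 0.88% at these sites.

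The low values also varied between empty vector libraries. Over the 49 HOX sites under 5% with all values, the empty vector libraries averaged 0.621%, 0.383% and 0.760%, TET1-ALT 0.417%, 0.437% and 0.529%, and TET1-FL 0.424%, 0.436% and 0.407%. Empty vector replicate 3, the library with the fewest measured sites, was the highest and empty vector replicate 2 the lowest of all 9, so the groups overlapped. The lowest value at a HOX site was 0.03%, and 6 to 9 of the 51 sites were under 0.1% in each library. The part that library depth has in these differences was not tested. In the rest of the genome, sites under 5% averaged 0.566% ± 0.0331 under the empty vector and 0.494% ± 0.0168 with full-length TET1, without overlap.

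**Figure D5:**
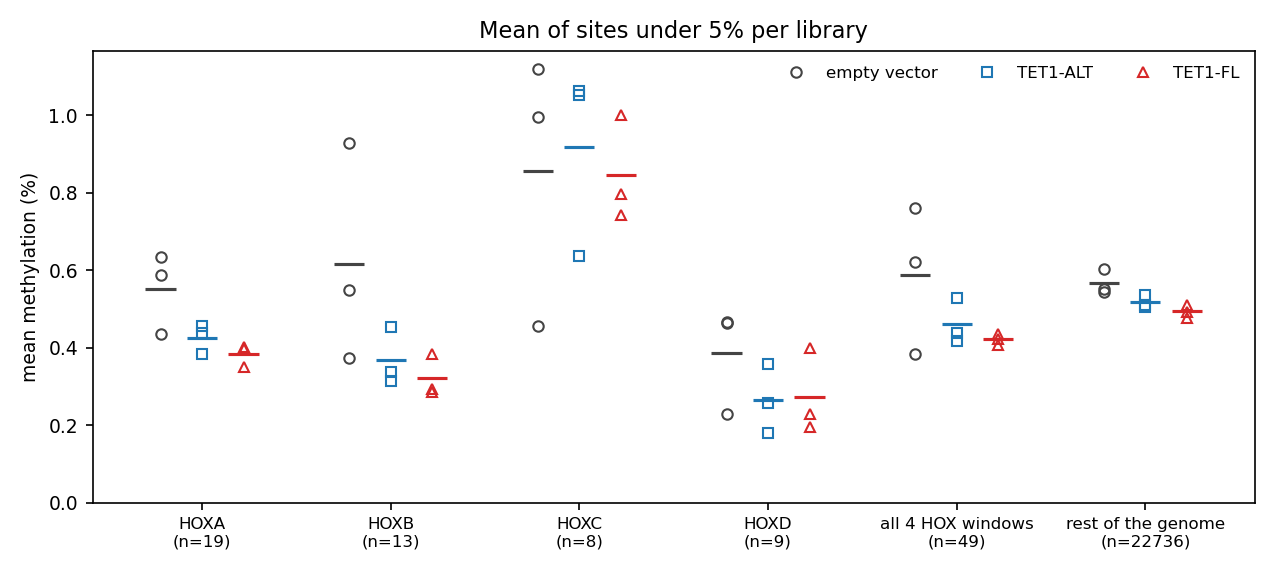
Mean methylation of sites under 5% (y axis, percent) in each library, with a line at the group mean, for the 4 HOX windows, all HOX sites and the rest of the genome (x axis, n sites). Over all HOX sites together the empty vector libraries spread from 0.383% to 0.760% and overlap the other groups. In HOXA the TET1-FL libraries (0.349% to 0.402%) lie below all empty vector libraries (0.434% to 0.634%).

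TET1-ALT was set against the same empty vector libraries, and no HOX site passed the test. In limma 0 of 106 sites were called (smallest adjusted p 0.670) and 0% of the genome. At an unadjusted p under 0.05 there were 10 HOX sites, each lower in TET1-ALT, where the genome had 7.3%. Of the 4687 such sites in the rest of the genome, 3542 were lower and 1145 were higher. Under 5%, where 9 of the 10 HOX sites lay, 1954 of 2295 were lower. The count of HOX sites was 2 without TET1-ALT replicate 3, 15 without empty vector replicate 2, 6 with the replicate block and 1 with centring. TET1-ALT libraries were all lower than the empty vector ones at 14 HOX sites (13.2%, genome 10.6%) and all higher at 4 (3.77%, genome 3.51%). Of the 14 lower sites, 12 were under 5%, which is 23.5% of the HOX sites under 5%. In the rest of the genome 15.6% of sites under 5% were lower, and 3743 of the 6792 lower sites were under 5%. These shares were not tested. This comparison and that of TET1-FL share the empty vector libraries, so likeness between them is not independent.

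Cluster means with TET1-ALT were within the spread of the libraries. They were 20.9% ± 0.110 (SD, n = 3) in HOXA, 27.6% ± 0.310 in HOXB, 36.4% ± 0.496 in HOXC and 67.6% ± 0.265 in HOXD. The differences from the empty vector were -0.0601, -0.126, -0.548 and 0.198 points in that order, all with overlapping libraries. Centring, which moves the differences of all windows by the same amount, turned HOXA to 0.205 and HOXB to 0.139 points. Without 1 library they came as near to 0 as -0.00698 points in HOXA (without TET1-ALT replicate 2) and -0.00317 in HOXB (without TET1-ALT replicate 3), HOXC reached -0.218 without empty vector replicate 2, and HOXD turned to -0.0498 without empty vector replicate 3. With the median level over sites in each library in place of the mean, HOXC turned to 0.108 and HOXD to -0.46 points. The medians of the differences per site were -0.243 points in HOXC and 0.0217 points in HOXD. At the HOXB site 46711052 the values were 97.81%, 97.57% and 98.76% with the empty vector and 97.16%, 96.40% and 95.46% in TET1-ALT, a difference of -1.71 points (SE 0.594, limma adjusted p = 0.670). The site at 46685256 in the same window had 94.26%, 96.25% and 94.63% against 97.62%, 96.42% and 96.42%, a difference of 1.77 points in the other direction.

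Between TET1-FL and TET1-ALT, the contrast that sets the 2 forms side by side, 0 of 106 HOX sites were called in limma (smallest adjusted p 0.895) and 0% of the genome. There were 3 HOX sites at an unadjusted p under 0.05, where the genome had 5.4%. That count was 31 with centring (smallest limma adjusted p 0.0913), 6 without TET1-ALT replicate 2, 5 without TET1-ALT replicate 1 or without TET1-FL replicate 1, 2 without empty vector replicate 1 or without TET1-FL replicate 3, and 1 without trend and robust moderation. TET1-FL libraries lay below those of TET1-ALT at 2 HOX sites (1.89%, genome 7.38%) and above at 1 (0.943%, genome 2.14%). The 2 lower sites were 27199974 in HOXA (0.437% and 0.783%) and 46620640 in HOXB (0.107% and 0.527%). The higher one was 176948930 in HOXD, with 95.46%, 97.70% and 94.79% in TET1-FL, 93.99%, 91.18% and 91.99% in TET1-ALT, and 94.97%, 90.07% and 90.36% with the empty vector. For HOX sites of 20 to 95% the median difference was -1.24 points, and -1.01 points in the rest of the genome. Cluster means differed by -0.0352 points in HOXA, -0.153 in HOXB, -0.473 in HOXC and -0.355 in HOXD, and the libraries overlapped in each. With centring, which adds the same amount to each of them, these became 0.647, 0.529, 0.209 and 0.327 points. HOXA turned to 0.0211 points without TET1-ALT replicate 3, and HOXB to 0.0499 without TET1-FL replicate 1 and to 0.0205 without TET1-ALT replicate 1. With the median level over sites in each library in place of the mean, HOXD turned to 0.608 points. The median of the differences per site in HOXD was -0.0717 points. HOXC was -0.161 points without TET1-FL replicate 3, and HOXD -0.115 without TET1-FL replicate 1.

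Replicates of 1 group differed from each other by amounts that depended on the level. At HOX sites with all 9 values the median SD within a group was 0.162 points under 5%, 3.19 points at 20 to 80%, 1.95 points at 80 to 95% and 0.794 points over 95%. In the rest of the genome these were 0.107, 2.87, 2.01 and 0.969 points. At HOX sites of 20 to 80% the median difference from the empty vector was -3.04 points for TET1-FL and -0.827 points for TET1-ALT, a median over 13 sites for which no error was computed. In the rest of the genome these medians were -1.88 and -0.607 points. TET1-FL was lower at 61.5% of these HOX sites, beside 74.5% in the rest of the genome, and TET1-ALT at 61.5%, beside 59.3%. Missing the threshold does not show that the forms act alike.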

How the data were processed

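DREAM libraries of 9 HEK293T DNA samples were compared in 3 groups of 3. Per the series' design text and the labels, the authors took the percent of methylated among all reads at each CCCGGG site, corrected with spiked-in standards, required 20 reads and amplified with 18 PCR cycles. Sites carry hg19 positions, per the site names in the table and the submitters' processing notes. No source used here names an aligner or methylation caller. The deposited table has no read counts, so no interval or coverage minimum could be set, and 21 rows outside the genome were not used.

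The 64313 sites with at least 2 values per group were fitted with limma 3.58.1 (R 4.3.3) on the percentages, with a mean per group over all 9 libraries, intensity trend and robust moderation. Missing values were left out of a site's fit. Benjamini-Hochberg adjustment of p-values took in every tested site, and a site was called under 0.05. Cluster means use sites with all 9 values and have no test. The fit was tested on simulated data. Members, lists and tests were chosen with earlier results of these data known. Named sites are, per window, the highest and lowest, the most negative and positive difference per comparison among sites with all 9 values, those with libraries apart and means 10 points apart, and neighbouring measured sites on either side of a change from under 20% to 80% or more. Other sites described (runs, intermediate sites, low-value sites and neighbours) were chosen after their values were seen. The lists of HOX cofactors, Polycomb, Trithorax and ParaHox genes fixed for an hg19 annotation could not be used. Same-numbered libraries did not deviate together from site to site, so the replicate numbers were not taken as pairs. A shift of whole libraries shared by replicate number cannot be seen by that check. Alternatives changed the replicate term, sites, scale, moderation, groups in the fit, centring, window borders and libraries. Promoter sequences are from RefSeq, GRCh38.p14.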

Additional observations from a re-analysis of the deposited data

How the results depend on the processing

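The count of 0 called HOX sites held in each of the 3 comparisons under all settings run, the replicate block (0 called) and each left-out library included, with 1 exception. Centring each library by its mean over highly methylated sites called 30 of 106 HOX sites for TET1-FL against the empty vector. Across the genome it called 17666 of 64313 sites. All 30 HOX sites were higher and 29 of them were under 5%. Centring shifts every site of a library by the same constant, by construction. Within a comparison it therefore moves the differences of all windows by the same amount. Centring also moved the cluster differences, which became 0.852 (HOXA), 0.668 (HOXB), -0.0731 (HOXC) and 0.79 points (HOXD) for TET1-FL against the empty vector, 0.647, 0.529, 0.209 and 0.327 for TET1-FL against TET1-ALT, and 0.205 (HOXA) and 0.139 (HOXB) for TET1-ALT against the empty vector. Another setting took the median level over sites in each library, which is not the median of the differences per site. Such medians gave -0.17, -0.545, -2.52 and 0.148 (HOXA to HOXD) for TET1-FL, -0.157, -0.475, 0.108 and -0.46 (HOXA to HOXD) for TET1-ALT, and -2.63 (HOXC) and 0.608 (HOXD) between the forms. All sites of the rule gave -1.79, -1.14 and -0.655 in HOXB in the same order of comparisons. The only sites this setting adds in HOXB are the 2 at 46796098 and 46796695, which lack a value in empty vector replicate 3. Windows widened by 20 kb gave -0.236 for TET1-FL against the empty vector and -0.238 between the forms in HOXA. The cause of the shifts with medians and windows was not tested. Leaving out 1 library gave, from HOXA to HOXD, ranges of -0.115 to -0.0663, -0.415 to -0.0764, -1.45 to -0.691 and -0.405 to 0.0829 for TET1-FL against the empty vector. For TET1-ALT they were -0.116 to -0.00698, -0.3 to -0.00317, -0.975 to -0.218 and -0.0498 to 0.332, and between the forms -0.0883 to 0.0211, -0.289 to 0.0499, -0.772 to -0.161 and -0.57 to -0.115. HOX sites at an unadjusted p under 0.05 ranged over all settings from 7 to 38, 1 to 15 and 1 to 31 in the same order of comparisons. Among named sites, 54348741 ranged from -9.62 to 3.4 (TET1-FL) and from -10.6 to 2.45 (TET1-ALT) and 54368907 from -0.293 to 9.17 (TET1-ALT) with 1 library left out, the reversed values being those without empty vector replicate 1. The replicate block was not taken as a pairing: deviations of same-numbered libraries correlated at -0.0153 to 0.0169 over 28190 sites, and those of other numbers at -0.0257 to 0.0248. A correlation over sites does not register a shift of a whole library, so pairing by such shifts was not tested. At sites with all 9 values, TET1-FL libraries lay below all empty vector libraries at 16 HOX sites (15.8%) and above at 1 (0.99%). The rest of the genome had 14.9% and 2.13%. For TET1-ALT these were 13 (12.9%) and 4 (3.96%), where the rest of the genome had 10.1% and 3.14%. The coverage minimum was not run, since read depth per site is unknown, and it limits the values under 0.1%.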
